A study of Mus musculus with 64 samples.

Results

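RNA levels at postnatal week (PWK) 7 in Cyfip2 knock-in mice (KI) were set against those of their wild-type siblings (WT) in 16 bulk RNA-seq libraries, out of 64 in the series. Every mouse was on the C57BL/6N background. KI mice carried the Arg87Cys substitution in one Cyfip2 allele, as the study's methods state, in every cell that expresses the gene, and WT mice carried none. The libraries were chosen by their labels alone: KI mice 1 to 4 and WT mice 1 to 4, frontal cortex and hippocampus, all at PWK 7 and untreated. Mice of both sexes were used in the study, and the labels do not give the sex of each. The other 48 libraries hold the same 4 groups at PWK 1, 14 and 28, each age with its own mice, and are used below only to place the PWK 7 values. Libraries of the same genotype and number were taken as the cortex and hippocampus of 1 mouse, which left 8 mice, and the genotype effect was fitted over both regions together. This design asks whether small changes shared by both regions precede the large late change, since in the same fit 3533 genes (19.2% of those tested) were called at PWK 14 and 5374 (29.2%) at PWK 28.

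CYFIP2 is a subunit of the WAVE regulatory complex, which receives signals from the small GTPase Rac1 and starts branched actin assembly through the Arp2/3 complex. It is abundant in neurons, where actin shapes dendritic spines and axon terminals. Variants at Arg87 in people cause an early-onset epileptic encephalopathy.

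Levels are given as the normalized counts of the deposited table, and fold changes are differences in log2(value + 1), KI minus WT, a scale on which changes of low genes come out smaller. The libraries summed to between 30.0 M and 31.8 M normalized counts. In hippocampus the KI totals (30.01 M to 30.54 M) all lay below the WT totals (30.56 M to 31.25 M). An exact two-sided permutation of 4 against 4 libraries gave p = 0.0286 there, the smallest it can give. The spacing of their low values gave an estimated depth of 26.4 M to 35.2 M reads. Hippocampal KI libraries averaged 33.3 M against 28.7 M in WT, with p = 0.0571 by an exact two-sided permutation of 4 against 4 libraries. Summed cortical markers (Cux2, Rorb, Fezf2 and Tbr1) were at 10439 or more in every cortical library and at 4660 or less in every hippocampal one. Summed hippocampal markers (Prox1, C1ql2, Dsp, Wfs1 and Fibcd1) were at 15386 or more in hippocampus and at 4584 or less in cortex, so the regions bore out their labels. One hippocampal library stood apart: in WT mouse 3 the choroid plexus markers Ttr, Folr1, Kl and Kcnj13 summed to 1364, while the other 7 hippocampal libraries lay between 34462 and 98395. Results that rest on this library are given with and without it.

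Across both regions, 5 of 18419 genes tested (0.0271%) differed between KI and WT mice at an adjusted p under 0.05 (limma-trend on log2 values, with Benjamini-Hochberg adjustment over all genes). All 5 were lower in KI mice, namely Nme2, Diras2, Rph3a, Npy and Sst. When the regions of each mouse were averaged before the fit, Nme2 alone of these kept its call. In the joint fit, a further 1425 genes reached only an unadjusted p under 0.05. Thus 1430 (7.76%) did so in all, 696 higher (3.78%) and 734 lower (3.99%). When the values were rescaled to equal library totals, these became 948 higher and 507 lower, while the median fold change of all genes moved from 0.00 to 0.02 on the log2 scale. The fold change had the same sign in both regions for 53.6% of 18324 genes. KI and WT libraries were fully separated in both regions for 32 genes (0.174%), 11 higher (0.0597%) and 21 lower (0.114%) in KI mice, and the 5 called genes were among them. The median standard error of a fold change was 0.07 over all genes and 0.05 over genes with a mean of at least 100, which bounds the size of shift that could be called.

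The edited gene itself was examined first. Cyfip2 (chromosome 11, 46193850 to 46312859, minus strand, GRCm38) was at 38912, 37662, 38975 and 37834 normalized counts in KI cortex and at 35788, 34519, 36054 and 36129 in WT cortex. In hippocampus it was at 30201, 28484, 29202 and 28292 in KI and at 30057, 32581, 30104 and 29337 in WT mice. Cortical KI libraries all lay above the WT ones, whereas the hippocampal groups overlapped. In cortex at PWK 7, 4.61% of all genes had the genotypes fully apart, in either direction. Later, cortical Cyfip2 was lower in KI mice. It was at 28584 to 38683 in KI and 39966 to 44053 in WT cortex at PWK 14, beside 14.1% of all genes fully apart. At PWK 28 it was at 21597 to 30055 and 34022 to 35279, beside 25.8%. The genotypes overlapped in cortex at PWK 1 and in hippocampus at PWK 1, 14 and 28. At PWK 7 the log2 fold change over both regions was 0.02 (SE 0.03, adjusted p = 0.943). The difference between the regions, -0.18 on the log2 scale (hippocampus minus cortex), had an unadjusted p of 0.00352 and an adjusted p of 0.539. In the list of the WAVE complex and Rac1, which includes Cyfip2, no gene of 12 was called. Cyfip1, the paralog of Cyfip2, had the smallest p, at -0.10 on the log2 scale (adjusted p = 0.433), while 3 of its partners, Nckap1l, Nckap1 and Brk1, stood at -0.12, -0.07 and -0.05. Genes of the Arp2/3, cofilin and profilin list gave no call among 22, with 1 at an unadjusted p under 0.05, Dstn (destrin, which depolymerizes actin), at 0.10. Over all genes, 3.78% were higher at that threshold.

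Nme2 had the smallest p of all genes. It encodes nucleoside diphosphate kinase B, which transfers phosphate groups between nucleotides. In cortex it was at 507, 471, 549 and 459 normalized counts in KI mice and at 1017, 1187, 1106 and 1205 in WT mice. Hippocampal values were 396, 521, 455 and 461 in KI and 1121, 1117, 976 and 1215 in WT mice. Each KI library was below each WT library of either region. The log2 fold change over both regions was -1.23 (SE 0.06, adjusted p = 8.37e-10), split into -1.18 for the cortex alone (adjusted p = 2.07e-05) and -1.27 for the hippocampus alone (adjusted p = 0.000149), and the regions did not differ beyond their error (adjusted p = 0.951 for the difference).

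Nme2 (chromosome 11, 93949814 to 93956259, minus strand) lies beside Nme1, the gene of the A kinase (93956979 to 93968521), and both overlap Gm20390 (93949819 to 93968293), a gene model that spans most of the pair. Nme1 was at 2649, 2610, 2515 and 2564 in KI and at 2473, 2589, 2388 and 2396 in WT cortex, groups that overlapped as they did in hippocampus, and its joint fold change was 0.08 (adjusted p = 0.716). Cortical Gm20390 was at 461, 512, 499 and 435 in KI and at 768, 481, 740 and 678 in WT mice, and the joint fold change was -0.42 (adjusted p = 0.150). Of the distinct 31-base words in the annotated transcripts of Gm20390, 56.8% also occur in Nme2 and 40.6% in Nme1, whereas Nme2 and Nme1 share none. In turn, 47.9% of the words of Nme2 and 11.7% of those of Nme1 occur in Gm20390. The division of reads between Gm20390 and its neighbours is therefore uncertain, also for Nme2. None of the other 6 kinases of the family that were measured was called.

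The level of Nme2 at the other ages was read mouse by mouse, since both regions of a mouse can be set side by side. At PWK 28 the pattern was that of PWK 7, with 554 to 660 in all 8 KI libraries and 1106 to 1330 in all 8 WT libraries. At PWK 1, the cortical values were 1264, 2972, 1132 and 1199 in KI mice 1 to 4 and 2441, 2889, 1004 and 2756 in WT mice 1 to 4. The same mice were high and low in hippocampus, with 1038, 2430, 940 and 1051 in KI and 2077, 2189, 954 and 2138 in WT mice. At PWK 14 the cortical values were 1028, 439, 1013 and 505 in KI and 1162, 420, 462 and 473 in WT mice, and again the hippocampus of the same mice followed, with 1686, 436, 1085 and 526 in KI and 1114, 601, 535 and 488 in WT mice. High and low levels therefore occurred in both genotypes at PWK 1 and 14, and each mouse kept its level in both regions. The joint fold change was -0.48 at PWK 1 (adjusted p = 0.845), 0.30 at PWK 14 (adjusted p = 0.527) and -0.99 at PWK 28 (adjusted p = 2.12e-09). Its difference from PWK 7 was called for PWK 14 (1.52, adjusted p = 0.00193) and for PWK 28 (0.24, adjusted p = 0.0323). The small difference at PWK 28 kept its call in 8 alternative fits and lost it in 5. With 4 mice per genotype at PWK 7, a level set by genotype and one that varies from mouse to mouse cannot be told apart for Nme2.

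**Figure D1:**
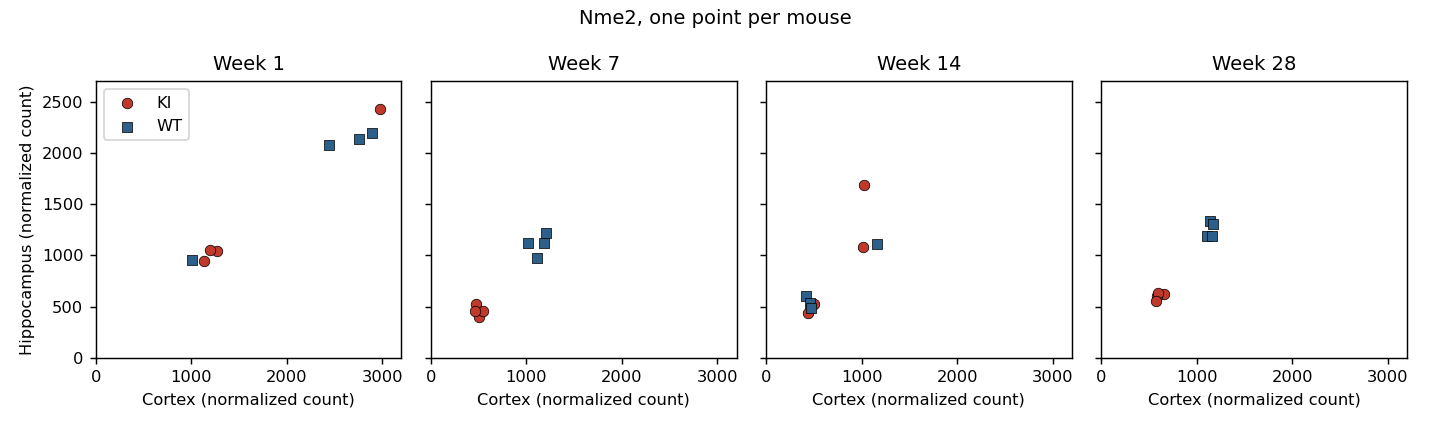
Normalized counts of Nme2 in cortex (x axis) and hippocampus (y axis), 1 point per mouse, KI as circles and WT as squares, with 1 panel per age in postnatal weeks. KI and WT mice form separate clusters at weeks 7 and 28, whereas at weeks 1 and 14 each cluster holds mice of both genotypes.

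Diras2 and Rph3a were lower in both regions by a similar amount. Diras2 encodes a Ras-family small GTPase found mostly in brain, and Rph3a encodes rabphilin 3A, a partner of Rab3 on synaptic vesicles. Diras2 (chromosome 13, 52504380 to 52531279) was at 11255, 12194, 11888 and 12010 in KI and at 13094, 13439, 14210 and 14527 in WT cortex. Its hippocampal values were 8804, 8174, 8505 and 8181 in KI and 9307, 9464, 10295 and 9785 in WT mice. The groups did not overlap in either region, and the joint fold change was -0.21 (SE 0.03, adjusted p = 0.0134). Rph3a (chromosome 5, 120940499 to 121010092) was at 13455, 14904, 15197 and 13964 in KI and at 16176, 17443, 18041 and 17487 in WT cortex. In hippocampus, Rph3a was at 8881, 9460, 9700 and 8337 in KI and at 10394, 11208, 10659 and 10140 in WT mice. These groups were separated as well, with a joint fold change of -0.24 (SE 0.04, adjusted p = 0.0191). When single mice were left out, Diras2 lost its call without KI mouse 3 or 4 or WT mouse 4 (adjusted p up to 0.107), and Rph3a without KI mouse 1 or 4 or WT mouse 2, 3 or 4 (up to 0.114).

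Both genes were also called at PWK 14, where Diras2 had a joint fold change of -0.41 (adjusted p = 0.0154) and Rph3a of -0.38 (adjusted p = 0.0178). There the cortex gave -0.83 and -0.74, while the hippocampus gave 0.01 and -0.01. At PWK 28 neither was called over both regions, with -0.22 and -0.15. The difference of these effects from PWK 7 was not called for either gene at either age, with adjusted p between 0.307 and 0.986. At PWK 1 the fold changes were 0.00 and -0.04.

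Npy and Sst encode the secreted neuropeptides neuropeptide Y and somatostatin, which in cortex and hippocampus mark overlapping classes of GABAergic interneurons. Sst was at 2299, 2337, 2330 and 2302 in KI and at 2707, 3433, 3192 and 3001 in WT cortex. Its hippocampal values were 2458, 2163, 1786 and 2288 in KI and 2475, 3169, 3057 and 2517 in WT mice. The genotypes did not overlap in either region, although KI mouse 1 and WT mouse 1 lay close together in hippocampus. The joint fold change was -0.39 (SE 0.07, adjusted p = 0.0438). Npy was at 1568, 1681, 1555 and 1661 in KI and at 1737, 1909, 1947 and 1957 in WT cortex. In hippocampus Npy was at 539, 528, 447 and 545 in KI and at 642, 769, 746 and 670 in WT mice. Again each KI library was below each WT library of its region, and the joint fold change was -0.34 (SE 0.06, adjusted p = 0.0438). Npy kept its call without KI mouse 2 or WT mouse 1 and lost it without any other single mouse (adjusted p up to 0.176), and Sst kept it only without WT mouse 1 (up to 0.147). Without the hippocampal library of WT mouse 3 alone, Npy was called and Sst was not (-0.37, adjusted p = 0.0587). In bulk tissue, fewer cells of a type and less RNA per cell cannot be told apart.

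**Figure D2:**
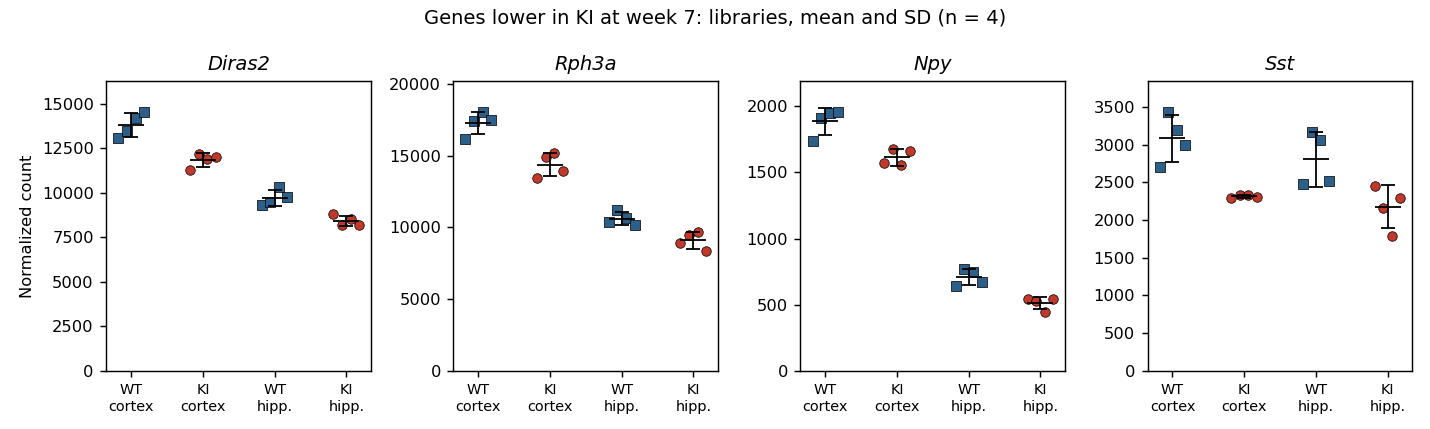
Normalized counts of Diras2, Rph3a, Npy and Sst in the 16 libraries of week 7 (points), with the mean and SD of each group of 4 (bars), WT and KI in cortex and hippocampus. All KI points lie below the WT points of the same region for each gene.

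None of the other interneuron genes was called. In the list of 18 GABAergic interneuron genes, Npy and Sst were called and 1 more was lower at an unadjusted p under 0.05, Cort (cortistatin, a peptide related to somatostatin), at -0.64 (SE 0.17, adjusted p = 0.293), while Nkx2-1, a patterning factor of these cells, stood at 0.76 with an unadjusted p under 0.05. The number lower, 3 with Npy and Sst, was 6 without KI mouse 1. Cort was weakly expressed, at 28, 38, 44 and 42 in KI and at 44, 86, 89 and 66 in WT cortex. Gad1 and Gad2, which make GABA, stood at -0.03 and -0.06, Slc32a1, which loads it into vesicles, at 0.02, Lhx6, a transcription factor of the Sst and Pvalb lineage, at -0.04 and Pvalb at 0.02. The median of the list was -0.05, against 0.00 over all genes. The list of 21 activity-induced effectors and neuropeptides, which shares Npy, Sst and Cort, had 6 members lower at an unadjusted p under 0.05 and none higher. The further 3 were Nrn1 (neuritin, -0.17), Nptx2 (neuronal pentraxin 2, -0.22) and Bdnf (-0.20), and none of these was called. Both lists were of 38 that were described in this way. Over all genes, 3.99% were lower and 3.78% higher at an unadjusted p under 0.05.

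The promoters of the 2 called peptide genes are shown because Sst is a textbook target of the factor CREB, which binds the cAMP response element TGACGTCA. RefSeq entries for GRCm38.p6 were used, and the stretch from 60 to 31 bases before the RefSeq start is printed 5′ to 3′, with the element in capitals.
Sst, chr16:23890875-23890904, minus strand: cgcctccttggcTGACGTCAgagagagagt
Npy, chr6:49822650-49822679, plus strand: actgcccccgaggcccctcctgccgcgaca
The element, which reads the same on both strands, lies 48 to 41 bases before the start of Sst. It was not found in the 300-base promoter windows of Npy, Diras2, Rph3a (3 starts) or Nme2 (2 starts). Of 32851 promoter windows of that length, 588 (1.79%) held it, as did 448 of the 16515 (2.71%) that belong to genes of the table. A match in letters says nothing of whether the factor was bound in these samples.

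At the later ages all KI libraries lay above WT for Npy in both regions and for Sst in cortex. Such separation, in either direction, was common then. It held for 14.1% of all genes in cortex and 23.8% in hippocampus at PWK 14, and for 25.8% and 21.5% at PWK 28. Hippocampal Npy was at 9967, 6059, 7972 and 2614 in KI and at 608, 778, 626 and 707 in WT mice at PWK 14. At PWK 28 it was at 3823, 2922, 3889 and 3879 in KI and at 765, 769, 683 and 755 in WT mice. The joint fold change of Npy was 1.90 at PWK 14 (adjusted p = 0.00198) and 2.10 at PWK 28 (adjusted p = 5.43e-07). The genotype effect at PWK 7 differed from both, by 2.24 (adjusted p = 0.000331) and 2.44 (adjusted p = 4.46e-10). Cortical Sst was at 4067, 3596, 3371 and 3792 in KI and at 3212, 2905, 2802 and 2970 in WT mice at PWK 14. At PWK 28, cortical Sst was at 8861, 4853, 7931 and 8108 in KI and at 2667, 3534, 3248 and 3076 in WT mice. Hippocampal Sst overlapped between the genotypes, at 2503 to 3983 in KI and 2655 to 3787 in WT mice at PWK 14. It did so again at PWK 28, at 2977 to 4216 in KI and 3135 to 3336 in WT mice. Over both regions the fold change of Sst was 0.18 at PWK 14 (adjusted p = 0.181) and 0.68 at PWK 28 (adjusted p = 0.00757), and it differed from PWK 7 by 0.57 (adjusted p = 0.00193) and 1.06 (adjusted p = 0.000229). Cort was below WT at these ages, at -1.44 (adjusted p = 0.000214) and -0.88 (adjusted p = 0.00400). At PWK 1, Npy and Sst stood at -0.16 and -0.14, with adjusted p of 0.740 and 0.551, and neither differed from PWK 7 by the test (adjusted p = 0.904 and 0.883).

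**Figure D3:**
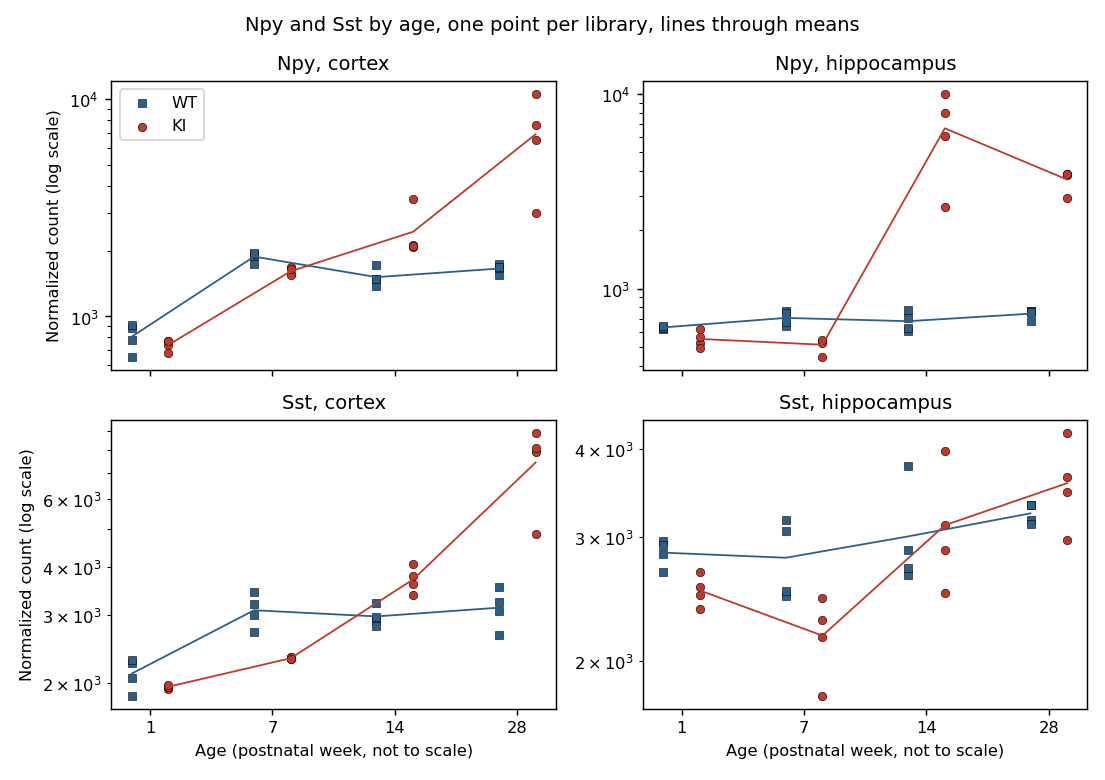
Normalized counts of Npy and Sst on a log scale by age in postnatal weeks, 1 point per library, with lines through the group means, in cortex (left) and hippocampus (right). KI libraries lie below WT at week 7 and mostly above at weeks 14 and 28, except for hippocampal Sst, where the groups overlap at both of these ages.

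No gene was called as higher in KI mice, and 3 of the 10 genes of smallest p in that direction, Col1a1, Col1a2 and Fmod, belong to the list of extracellular matrix and meningeal genes. Without the hippocampal library of WT mouse 3, 4 genes were called higher, Fmod and Col1a1 (both at an adjusted p of 0.0148), Aebp1 (0.0164) and Fam180a (0.0305). Aebp1, which encodes a collagen-binding protein of the matrix, came closest, at 878, 794, 908 and 821 in KI and at 641, 634, 445 and 646 in WT cortex. In hippocampus Aebp1 was at 1128, 899, 1086 and 906 in KI and at 680, 483, 810 and 731 in WT mice. The groups were separated in both regions, and the fold change was 0.56 (SE 0.10, adjusted p = 0.0529). Col1a1 and Col1a2, the chains of type I collagen, stood at 0.69 (adjusted p = 0.0648) and 0.51 (adjusted p = 0.129), and Fmod, the collagen-binding proteoglycan fibromodulin, at 0.62 (adjusted p = 0.134). The other genes among the 10 of smallest p were Fam180a (0.90, adjusted p = 0.0758), Flna (filamin A, which crosslinks actin, 0.21, adjusted p = 0.0758), Itih2 (a hyaluronan-binding serum protein, 0.47), Sik1 (a cAMP-responsive kinase, 0.49), Tmem163 (a zinc transporter, 0.36) and Klhl1 (a kelch protein, 0.46), the last 4 at an adjusted p of 0.149.

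Of the 22 genes in the list of extracellular matrix and meningeal genes, 20 had a positive fold change and 11 were higher at an unadjusted p under 0.05, against 3.78% of all genes, and none was lower. The 11 were Col1a1, Col1a2, Fmod, Bgn, Ogn, Lum, Col5a1, Aldh1a2, Dcn, Fn1 and Col6a2. The median was 0.24 over both regions, 0.12 in cortex and 0.37 in hippocampus. Without the hippocampal library of WT mouse 3 these were again 20 and 11, and without those of WT mice 2 and 3 they were 19 and 10. At PWK 14, where 9.15% of all genes were called higher and 10% lower, 8 members were called higher and 1 lower (median 0.42). At PWK 28, where 15.5% of all genes were called higher and 13.6% lower, 7 members were higher and 4 lower (median 0.23), and at PWK 1 none was called (median -0.02). Summed meningeal markers (Slc6a13, Lum, Dcn and Col1a1, all members of the list too) moved with it. They lay between 1104 and 1322 in KI and between 676 and 1053 in WT cortex, and between 1969 and 3060 in KI and between 1460 and 2269 in WT hippocampus, with none at 0. The part of adhering meninges in the matrix result was not tested.

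The choroid plexus list looked alike at first but rested on few libraries. All 15 of its genes had a positive fold change, with a median of 0.53, and none reached an unadjusted p under 0.05, although 3 did so without WT mouse 1 and 2 without WT mouse 4. Without the hippocampal library of WT mouse 3, 9 were positive with a median of 0.09, and without those of WT mice 2 and 3, 3 were positive with a median of -0.12. Summed choroid plexus markers were at 40277, 98395, 94462 and 87438 in KI hippocampus and at 87963, 34462, 1364 and 95036 in WT hippocampus, so the genotypes overlapped.

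**Figure D4:**
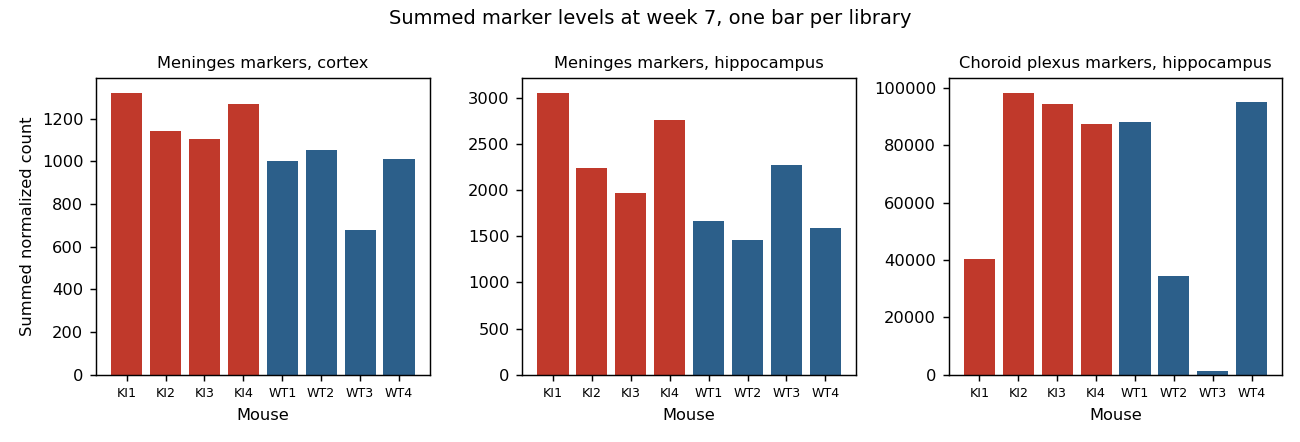
Summed normalized counts of meningeal markers in cortex and hippocampus and of choroid plexus markers in hippocampus at week 7, 1 bar per mouse, KI in red and WT in blue. Meningeal sums of all KI cortices exceed those of the WT cortices, whereas the choroid plexus sum is near 0 only in WT mouse 3, at 1364.

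Among the genes with a negative fold change, 5 more complete the 10 of smallest p, without passing the threshold. They were Tfrc, the transferrin receptor (-0.20, adjusted p = 0.0648), Mertk, a receptor with which glia take up debris (-0.26, adjusted p = 0.0721), Herc1, a ubiquitin ligase (-0.14, adjusted p = 0.0753), the predicted gene Gm44846 (-0.67, adjusted p = 0.0753) and Sema5a, an axon guidance factor (-0.28, adjusted p = 0.0758). Mertk was at 1291, 1675, 1505 and 1320 in KI and at 1691, 1716, 1705 and 1701 in WT cortex. In hippocampus it was at 1155, 1190, 1073 and 1171 in KI and at 1336, 1510, 1400 and 1334 in WT mice. KI mouse 2 lay close to WT in cortex, and the other KI mice lay clearly below. Mertk was called in the same direction at PWK 14 (-0.27, adjusted p = 0.0476) and PWK 28 (-0.32, adjusted p = 0.00448). Tfrc was called higher at PWK 28 (0.37, adjusted p = 0.00202), and its difference between PWK 28 and PWK 7 was called (0.57, adjusted p = 2.85e-05).

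Glial genes gave small shifts. Over all genes, 3.78% were higher and 3.99% lower at an unadjusted p under 0.05. All 18 myelin genes had a positive fold change (median 0.13, 0.08 in cortex and 0.20 in hippocampus), and 7 were higher at an unadjusted p under 0.05. They included Gal3st1 (0.24) and Ugt8a (0.16), which make the myelin glycolipid sulfatide and its precursor, and Mag (0.16), an adhesion protein of myelin. None was called. This number was 14 without KI mouse 1, 3 without KI mouse 3, 2 without KI mouse 4 and 4 without WT mouse 1, and 2 without the hippocampal libraries of WT mice 2 and 3. Summed oligodendrocyte markers overlapped between the genotypes, at 145345 to 170635 in KI and 119717 to 157378 in WT hippocampus. Of 15 homeostatic astrocyte genes, 5 were lower at an unadjusted p under 0.05 and none higher: Glul (glutamine synthetase, -0.11), the glutamate transporters Slc1a3 (-0.11) and Slc1a2 (-0.10), Fgfr3 (-0.17) and Aldoc. The number was 9 without KI mouse 2, and 3 without KI mouse 4 or WT mouse 3. Of 15 homeostatic microglia genes, 13 had a negative fold change (median -0.06), and 2 reached an unadjusted p under 0.05, among them Csf1r (-0.15), a growth factor receptor of microglia, with 1 or none such gene in fits without KI mouse 1 or WT mouse 2 or 3.

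Markers of reactive glia were mixed, beside 3.78% of all genes higher and 3.99% lower at an unadjusted p under 0.05. Gfap, the hallmark of reactive astrocytes, stood at 0.05 (adjusted p = 0.905), and it was called at 2.16 at PWK 14 and 1.76 at PWK 28. Of 20 reactive astrocyte genes, 3 were higher at an unadjusted p under 0.05, Cd44 (0.51), Cp (0.20) and C4b (0.24), and 2 were lower, Serpina3n (-0.23) and Aspg. Cd44 and C4b were called higher at PWK 14 and 28, and Serpina3n, below WT at PWK 7, was called at 2.02 and 1.80 there. The effect on Serpina3n had the smallest p of all genes for a difference between PWK 28 and PWK 7 (2.02, adjusted p = 6.55e-11). Of 20 interferon-stimulated genes, 19 had a positive fold change (median 0.13, 0.03 in cortex and 0.18 in hippocampus), and Ifit3 (0.27) and Ifit1 (0.44) reached an unadjusted p under 0.05, with 4 such genes without WT mouse 1. At PWK 14 all 20 were positive (median 0.27) and 1 was called higher, against 9.15% of all genes. At PWK 28, 18 were positive (median 0.54), with 8 called higher and 1 lower, against 15.5% and 13.6%. At PWK 1, 10 were positive and none was called.

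**Figure D5:**
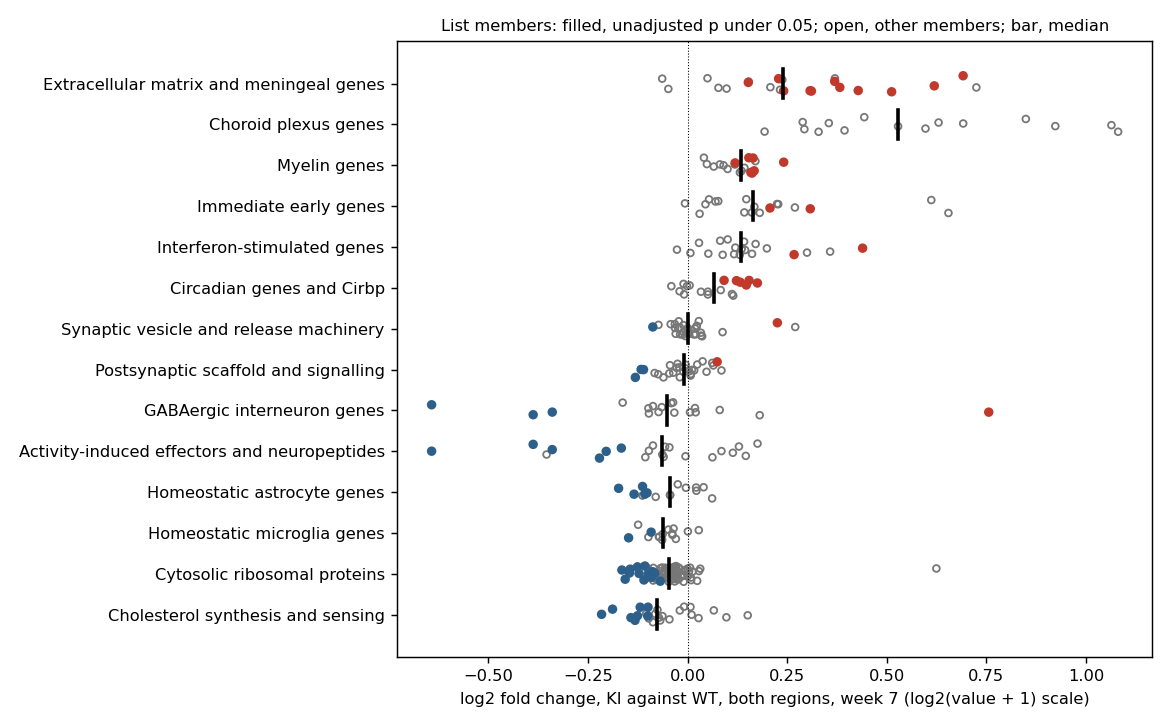
Joint log2 fold changes at week 7 (x axis) of the members of 14 gene lists (rows), with filled points for an unadjusted p under 0.05, open points for the other members and a bar at the median. Members of the choroid plexus and myelin lists and 20 of 22 matrix genes lie to the right of 0, and those of the ribosomal and cholesterol lists mostly to the left.

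Genes of cholesterol synthesis and of the ribosome had mostly negative fold changes, including with equal library totals. Of 25 genes for cholesterol synthesis and sensing, 19 had a negative fold change (median -0.08) and 8 were lower at an unadjusted p under 0.05, against 3.99% of all genes. They included Srebf2, the regulator of the pathway (-0.10), Fdft1, which makes squalene (-0.12), Msmo1, Hmgcs1, Stard4 and Cyp51. The number was 4 without KI mouse 2, 3 without WT mouse 3 and 5 without WT mouse 4. At PWK 1 the median was -0.15, with 1 of 25 genes positive and none called. The list stood on the other side of WT later, with 16 members called higher at PWK 14 (median 0.31), against 9.15% of all genes, and 9 at PWK 28 (median 0.19), against 15.5%, where 1 was called lower. Of 81 cytosolic ribosomal protein genes, 71 had a negative fold change (median -0.05), and 14 were lower at an unadjusted p under 0.05, among them Rps20 (-0.16), Rpl39 (-0.15) and Rps21 (-0.16). This number was 7 with equal library totals. It was 34 without KI mouse 2 and between 4 and 8 when KI mouse 1, 3 or 4 or WT mouse 1, 2 or 3 was left out. At PWK 14, 17 members were called lower (median -0.08) and none higher, against 10% and 9.15% of all genes. At PWK 28, 24 were called lower and 1 higher (median -0.09), against 13.6% and 15.5%. At PWK 1 none was called, and 57 of 81 were positive (median 0.02). Many ribosomal protein genes have near-identical pseudogenes, which makes their counts uncertain.

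Immediate early genes, which neurons switch on within minutes of firing, had a positive fold change in 17 of 18 cases. The median was 0.16 over both regions, 0.35 in cortex and 0.02 in hippocampus. Ier5 (0.21) and Egr1 (0.31) reached an unadjusted p under 0.05, against 3.78% of all genes higher, and none was called. The number was 5 without KI mouse 1, 8 without KI mouse 2 and 7 without WT mouse 4, and 1 without KI mouse 3 or 4 or WT mouse 1 or 2. The median of this list was 0.16 at PWK 14, with 13 of 18 positive, and -0.48 at PWK 28. Of 18 circadian genes, 6 were higher at an unadjusted p under 0.05, against 3.78% of all genes. They were Tef (0.09), Bhlhe40 (0.15), Hlf (0.18), Dbp (0.15), Bhlhe41 and Cry1, and the number was 1 without KI mouse 3 and 3 without WT mouse 1. The labels state that brains were collected between 2 and 4 in the afternoon. At PWK 14 and 28 this list had 11 and 9 members called lower, against 10% and 13.6% of all genes.

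No synaptic gene list held a called gene. Of 30 genes of the synaptic vesicle and release machinery, 16 had a positive fold change and 14 a negative one (median 0.00, 0.04 in cortex and -0.03 in hippocampus). Of 28 postsynaptic scaffold and signalling genes, 12 were positive and 16 negative (median -0.01). Taken by region, 19 were positive in cortex (median 0.05) and 4 in hippocampus (median -0.06), a difference that was not tested for the list. Cttnbp2 (-0.12), Git1 (-0.13) and Camk2a (-0.11) were lower at an unadjusted p under 0.05, and no gene of the list was called. A list of 39 synaptic genes comes from the study itself, which chose them on this series, so it is no independent evidence of a direction. Cttnbp2, Git1 and Camk2a were again its lower members at an unadjusted p under 0.05, and the number lower was 1 without KI mouse 4. Its median was 0.00, with 28 members positive in cortex (median 0.04) and 8 in hippocampus (median -0.04). At PWK 14, 29 of those 39 were called lower and none higher, against 10% and 9.15% of all genes. Glutamate receptors gave 3 of 24 lower at an unadjusted p under 0.05, Grm3 (-0.16), Grin2a (-0.11) and Grm7 (-0.10), and GABA-A receptor subunits 1 of 12, Gabrb1 (-0.13). Without KI mouse 1 these numbers were 8 and 3, and the GABA-A number was also 3 without WT mouse 1 and 2 without WT mouse 2. Over all genes, 3.99% were lower at an unadjusted p under 0.05.

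Differences between the regions were tested next. Of 18419 genes, 1 (0.00543%) was called for a genotype effect that differed between hippocampus and cortex, and 1200 (6.52%) reached an unadjusted p under 0.05. That gene, the predicted zinc finger gene Gm14440, was listed at 0 in all 4 hippocampal KI libraries and at 129, 608, 452 and 310 in WT hippocampus. In cortex it was listed at 0 in all libraries except KI mouse 4, at 91. Genes listed at 0 in 1 library and at 10 or more in another of the same group were treated as uncertain. The next smallest p belonged to Mfsd4a, at 0.03 in cortex and -0.40 in hippocampus (adjusted p = 0.177), and to Baiap2l2, at 1.05 and -1.48 (adjusted p = 0.253). Taken alone, the cortex gave 1 called gene, Nme2 (0.00545% of those tested), and the hippocampus 4 (0.0218%), which were Nme2, Gm14440, Zxda and Gm20691, the last 3 uncertain for the reason given.

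The genes of the late change were then looked up at PWK 7. At both PWK 14 and PWK 28, 1118 genes were called higher and 1067 lower. Of the late-higher genes, 52.0% had a positive fold change at PWK 7, where 50.9% of all genes did, and their median was 0.01. Of the late-lower genes, 50.2% had a negative one, against 49.1% of all genes, with a median of 0.00. Both shares lay near the background. At an unadjusted p under 0.05, 73 late-higher genes (6.53%) moved in the late direction and 59 in the opposite one, while 71 late-lower genes (6.65%) moved in the late direction and 42 in the opposite one. Over all genes these shares were 3.78% higher and 3.99% lower. With equal library totals, 86 late-higher genes moved in the late direction and 38 in the opposite one. For late-lower genes the numbers were then 54 and 64, so their lean depended on the scaling. All genes then stood at 5.15% higher and 2.75% lower. Of the genes called at both late ages, 1 was called at PWK 7, Npy, against its late direction. Diras2 and Rph3a, lower at PWK 7, were called lower at PWK 14 as well. At PWK 28, Nme2 was again called lower, whereas Sst was called higher. Of 19 measured genes that earlier results had named for their late change, none was called at PWK 7. Slc6a5 and Glra1 (glycine transporter and receptor), at 5.71 and 4.11 at PWK 14, stood at -0.08 and -0.59, and Drd4 and Gal, at 4.41 and 3.58, at -0.37 and -0.35. Ptgds (0.25), Apod (0.14) and Sstr2 (0.18), a somatostatin receptor, reached an unadjusted p under 0.05, a number that was 5 without KI mouse 3 and 1 without KI mouse 4 or WT mouse 4.

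The genotype effect at PWK 7 was also compared as a whole with that at the other ages. For PWK 1 no gene of 18428 differed from PWK 7 by limma's adjusted p (0.0%), and 1018 (5.52%) did at an unadjusted p under 0.05. For PWK 14, 2295 genes (12.5%) differed, and for PWK 28, 3752 (20.4%). The genes of smallest p were Klhl40 and B3gat1 for PWK 14 (1.77 and -0.68) and, with Serpina3n, Trnp1 for PWK 28 (1.54). In the joint fit of PWK 1, 1 gene was called (0.00544%), Tgfb1i1, which was chosen after its values were seen.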

How the data were processed

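Bulk frontal cortex and hippocampus of each mouse were sequenced from stranded libraries. The authors quantified transcripts with Salmon against GRCm38, imported them with tximport and scaled them with DESeq2 over all 64 libraries, and the deposited signal is the resulting normalized count. Raw reads were not recovered, since at most 52.0% of low values in a week 7 library lay within 0.1 of a whole step. Depth is therefore estimated only.

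From these values, limma 3.58.1 in R 4.3.3 was run on log2(value + 1) with an intensity trend, for genes with a mean of at least 1, with region as a factor and the mouse as a random block (consensus correlation 0.04), two-sided, called at an adjusted p under 0.05. The plan named a count test for raw counts and this test for normalized ones. The scripts were tested on simulated data. Equal numbers were checked as marking one mouse over 12731 genes: deviations of the regions correlated at between -0.08 and 0.14 in KI and between -0.03 and 0.09 in WT mice, so at this age the data add little to the rule. Groups came from the labels. Nothing says that the mice were of separate litters.

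Named genes were Cyfip2, Nme2 and its neighbours, every called gene, the genes of smallest p up to 10 per direction, up to 4 of smallest p per list with all of the late list, and 3 per interaction. The members, lists and tests were chosen with earlier results of these data known. Names and positions came from GENCODE for GRCm38, which matched 18420 of 18432 identifiers. Salmon shares reads between overlapping genes by estimate. Some genes that the rule names are not reported here.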

Additional observations from a re-analysis of the deposited data

Results flagged for a closer look

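In 23 genes named for the joint fit, 92 groups of 4 libraries were screened for a library far from the other 3, and 6 were set apart, where chance gives about 1 in 20. They were Npy in KI hippocampus (447 in mouse 3), Aebp1 in WT cortex (445 in mouse 3), Tmem163 (243) and Klhl1 (45.1) in KI hippocampus, both in mouse 3, and Gm44846 in KI cortex (61.6 in mouse 3) and KI hippocampus (88.9 in mouse 1). For Npy and Aebp1 the outlying library lay on the far side from the other genotype.

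The genotype effect differed between regions for Gm14440 (hippocampus minus cortex, -9.98 on the log2 scale, adjusted p = 0.0255), a gene listed at 0 in 11 of the 16 libraries. Among the genes called at PWK 7 it differed between ages for Npy (2.24 for PWK 14 minus PWK 7 and 2.44 for PWK 28 minus PWK 7), Sst (0.57 and 1.06) and Nme2 (1.52 and 0.24), all by limma's interaction test.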

How the results depend on the processing

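Of the 5 genes called over both regions, Nme2 was called under all 21 alternatives, Diras2 under 16, Rph3a under 13, Npy under 12 and Sst under 7, and each kept its direction in all 21. The count of 5 became 8 with no replicate block, 13 with sample quality weights, 9 and 8 without the hippocampal library of WT mouse 3 and of WT mice 2 and 3 (both chosen after seeing the data), and 1, Nme2, when all 64 libraries shared one fit. It ranged from 1 (without KI mouse 4 or WT mouse 4) to 19 (without KI mouse 2), with 3 without KI mouse 1 or 3 and 2 without WT mouse 2. With the replicate block of the number shared by KI and WT it was 6, and with one value per mouse 5, of which 4 were matrix genes higher in KI mice (Col1a1, Fmod, Col1a2 and Aebp1). In that fit by mouse, Diras2, Rph3a, Npy and Sst all lost their calls. Equal numbers of KI and WT mice did not deviate together, with correlations from -0.26 to 0.18. The regional difference, 1 gene, became 0 with that replicate block, one value per mouse, quality weights, a robust prior and either omission of hippocampal libraries, and ranged from 0 to 1 without single mice, the one gene being Zxda without WT mouse 4. Single-region counts ranged from 1 to 4 in cortex and from 4 to 7 in hippocampus without single mice, and the hippocampal 4 became 2 with a filter at a mean of 50. The PWK 28 minus PWK 7 effect of Diras2, -0.00, ranged from -0.025 to 0.019 without single mice and was positive without WT mouse 1 or 2 (0.0083). That of Nme2, 0.24, lost its call in 5 alternative fits and kept it in 8. The late-higher share of 52.0% became 48.8% for genes chosen at PWK 28 alone and, with equal library totals, 60.0%, where all genes moved from 50.9% to 58.4%. The late-lower share of 50.2% became 53.4% for PWK 14 alone and 42.8% with equal totals, where all genes moved from 49.1% to 41.6%. The cause of the other changes was not tested. Precision is limited by 4 mice per genotype.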
